A study of Mus musculus with 9 samples.

Results

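Cep85l, Pln, Mcm9 and Sln were followed across 9 Affymetrix Clariom S arrays of mouse tibialis anterior, a shin muscle built mostly of fast fibres. They are 4 of the 19505 genes that the platform annotation names, and each has 1 probe set. Cep85l, Pln and Mcm9 are neighbours on chromosome 10, and Sln lies on chromosome 9 and was taken for its relation to Pln in function. Cep85l was selected on measured values, its higher log2 level in the MCUb knockout than in the other groups, so its levels and differences are given as a description with no test. Pln and Mcm9 were added by position and Sln by function, with earlier results of these arrays known.

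The study asks what MCUb, a paralogue of the mitochondrial calcium uniporter pore MCU, does for oxidative phosphorylation. All mice were 2 months old and on a C57/BL6 background. Control muscle had the genotype MCU+/+/MCUb+/+, the MCU knockout MCU-/-/MCUb+/+ and the MCUb knockout MCU+/+/MCUb-/-, with 3 arrays each. No promoter, Cre driver or construction of the null alleles is named in the labels, nor the sex of the mice.

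Phospholamban (Pln) and sarcolipin (Sln) are small membrane proteins of the sarcoplasmic reticulum that bind the calcium pumps of the SERCA family and slow calcium uptake. Phosphorylation of phospholamban by protein kinase A or by calmodulin-dependent kinase relieves its inhibition. Phospholamban is best known from heart and slow muscle, and sarcolipin from the atria and from slow or immature skeletal muscle. Cep85l is a centrosomal coiled-coil protein with a role in the migration of cortical neurons. Mcm9 belongs to the MCM helicase family and works with Mcm8 in repair by homologous recombination.

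In the RefSeq gene table of GRCm38.p6, Pln lies inside the span of Cep85l and is transcribed from the opposite strand, and Mcm9 is the next measured gene beyond Pln. RefSeq start regions, 250 bases before to 50 bases after the annotated start, were found for 3 of the 4 genes. Those of Cep85l and Pln are printed because the first had separate levels in the 3 genotypes while the second, inside its span, lay below background. Cep85l is at chr10:53379834-53380133 on the minus strand, and Pln is at chr10:53337436-53337735 on the plus strand. Both run 5′ to 3′, and capitals mark the GC box (GGGCGG), the E-box (CANNTG) and the CCAAT box (CCAAT), searched on both strands.
Cep85l: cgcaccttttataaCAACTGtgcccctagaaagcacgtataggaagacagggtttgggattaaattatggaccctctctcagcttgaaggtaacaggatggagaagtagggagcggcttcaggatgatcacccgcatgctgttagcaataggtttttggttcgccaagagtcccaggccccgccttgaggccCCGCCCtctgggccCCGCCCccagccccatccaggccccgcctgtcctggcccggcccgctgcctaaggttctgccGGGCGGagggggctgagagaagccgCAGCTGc
Pln: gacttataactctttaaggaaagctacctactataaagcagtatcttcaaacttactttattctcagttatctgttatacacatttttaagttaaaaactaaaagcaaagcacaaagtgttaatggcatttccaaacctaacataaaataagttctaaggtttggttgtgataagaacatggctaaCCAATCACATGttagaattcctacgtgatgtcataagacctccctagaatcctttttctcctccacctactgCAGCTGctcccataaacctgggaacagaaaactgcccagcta

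The start region of Cep85l was rich in G and C (60.7%, with 14 CpG), and that of Pln was poor (36.0%, with 1 CpG). Over all 32851 RefSeq start regions of this length the medians were 52.7% and 7. Cep85l held 3 GC boxes and Pln 0, against a share of 35.7% of all start regions with at least 1. Each held 2 E-boxes, a motif of 72.3% of start regions, and in both the copy after the start read CAGCTG. Pln held 1 CCAAT box directly before its upstream E-box, and Cep85l held 0 (share 37.4%). The MEF2 motif, which muscle transcription factors of that family bind, was in neither (share 3.19%). The start region of Mcm9 was 70.0% G and C with 35 CpG, 3 GC boxes and 0 E-boxes. These matches describe letters of the annotated starts, and which start the muscle uses is not shown by the arrays.

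Levels below are log2 values of a probe set. Above background means above the 95th percentile of the 23 background sets of the same array, a limit of 5.87 to 5.92. The arrays also hold 5222 control features whose identifiers read neg, of a design not described in the sources used here. Their 95th percentile was higher, 9.56 to 9.88, and was not used as the limit. The labels were checked with Mcu, whose mean log2 level was 10.60 ± 0.31 (SD, n = 3) in control, 6.94 ± 0.13 in the MCU knockout and 10.86 ± 0.18 in the MCUb knockout. Control and MCUb knockout overlapped for Mcu, so it checks only the labels of the MCU knockout. Mcub was not analysed here, and control and MCUb knockout labels were not checked against each other. Between 45.3% and 45.9% of probe sets were above background on an array. The skeletal muscle genes Acta1, Ckm, Myh4, Mylpf, Tnnt3 and Actn3 were above background on all 9 arrays. Control replicate 3 had the lowest mean correlation with the other arrays, 0.978 against 0.985 to 0.988. The Y-linked genes Uty and Kdm5d averaged 7.56 and 7.24 on the MCU knockout arrays numbered 2 and 3, 7.80 on the first MCUb knockout array, and 3.01 to 3.89 on the other 6. The third measured Y-linked gene, Eif2s3y, was above background on 0 of 9 arrays and is not part of that mean. Whether replicate arrays stand for different mice is not stated in the labels. The p-values therefore cover only the variation among these arrays, an unknown part of which may be technical. Arrays within each knockout group differed in Y-linked level, while the control arrays were all low. Such a level would differ with sex, which the labels do not give. It was spread unevenly over the genotypes. In the main fit its part in differences from control cannot be told apart from that of genotype.

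Cep85l was lowest in control, intermediate in the MCU knockout and highest in the MCUb knockout. Its log2 level was 8.89, 9.04 and 8.79 on the control arrays. It was 9.70, 9.51 and 9.18 on the MCU knockout arrays and 10.47, 10.78 and 10.48 on the MCUb knockout arrays. All 9 values passed the background limit. Of the control features whose identifiers read neg, Cep85l exceeded 91.9% to 92.5% in control and 92.9% to 94.3% in the MCU knockout. In the MCUb knockout it exceeded 96.7% to 97.4%, so only there did it pass their 95th percentile. Every MCUb knockout array lay above every other array, and every MCU knockout array lay above every control. The step from the highest MCU knockout to the lowest MCUb knockout array was 0.77, larger than the range within any genotype (0.25 to 0.52). The step from the highest control to the lowest MCU knockout array was 0.13, smaller than the range within either group. Groups that did not overlap, with the second genotype higher, were found for 6.08% of all 22206 probe sets between control and MCU knockout, for 5.73% between control and MCUb knockout and for 6.19% between MCU and MCUb knockout. All MCUb knockout arrays lay above all others for 1.33%. Since Cep85l was picked for this, nothing is read from these shares.

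In means, Cep85l went from 8.91 ± 0.13 (SD, n = 3) in control to 9.46 ± 0.27 in the MCU knockout and 10.57 ± 0.17 in the MCUb knockout. The log2 difference from control was 0.55 (SE 0.19), or 1.47-fold, in the MCU knockout and 1.67 (SE 0.19), or 3.17-fold, in the MCUb knockout. The knockouts differed by 1.11 (SE 0.19), or 2.16-fold. The differences from control share the same 3 control arrays. An order of control, MCU knockout and MCUb knockout from low to high with no overlap was seen for 17 of the 22206 probe sets (0.0766%), 14 of them named. Apart from Cep85l, those above background on every array were Pfn2, Rsrc2, Clcn3, Pus10 and Cyth1, given here because this count was made after seeing the values. Of the 14, Cep85l had the widest step between the knockouts. Since it was picked for its level in the MCUb knockout, nothing is read from that rank or from the share of 0.0766%.

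**Figure D1:**
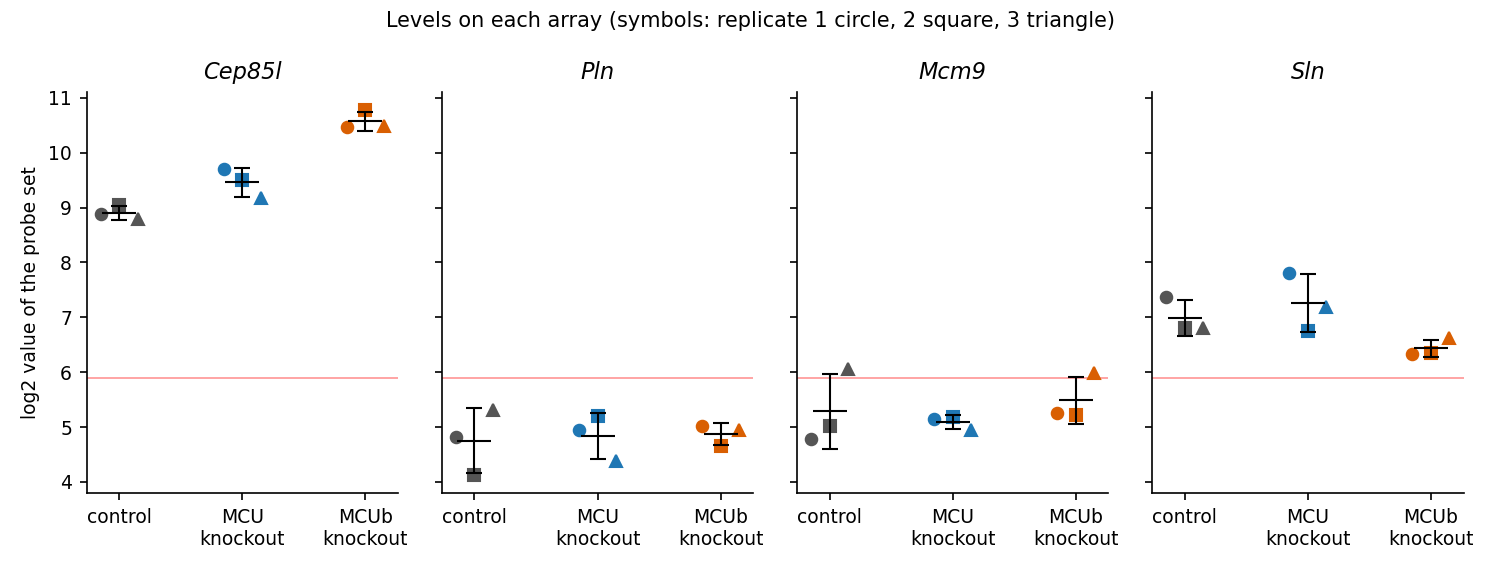
Log2 value of the probe set of Cep85l, Pln, Mcm9 and Sln on each of the 9 arrays, by genotype; black bars are the mean and SD of 3 arrays, and the red line is the background limit of 5.87 to 5.92. Cep85l separates the 3 genotypes, Pln lies under the limit on all 9 arrays, Mcm9 passes it on 2, and the MCUb knockout arrays have the 3 lowest Sln values.

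Cep85l was also read by the Y-linked level of the arrays. It lay between 9.18 and 10.47 on those 3 arrays and between 8.79 and 10.78 on the other 6. On those 6 alone its difference from control was 0.79 (SE 0.29) in the MCU knockout, where 1 array of that group remained, and 1.72 (SE 0.23) in the MCUb knockout. Without control replicate 3 or any other single array, it stayed between 1.57 and 1.73 in the MCUb knockout and between 0.43 and 0.70 in the MCU knockout. Because Cep85l was picked on these same arrays, these ranges are a description only.

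Pln, inside the span of Cep85l, was below the background limit on all 9 arrays. Its log2 level was 4.82, 4.13 and 5.31 in control. The MCU knockout arrays gave 4.94, 5.21 and 4.38, and the MCUb knockout arrays gave 5.02, 4.65 and 4.95. All 3 genotypes overlapped, with every value at least 0.61 under the limit of its array. By limma with Benjamini-Hochberg adjustment, the log2 difference was 0.09 (SE 0.30, adjusted p = 0.941) in the MCU knockout and 0.12 (SE 0.30, adjusted p = 0.937) in the MCUb knockout. Between the knockouts it was 0.03 (SE 0.30, adjusted p = 0.99985), with a 95% interval of -0.64 to 0.69. Values below background carry only an upper bound on the level, so these intervals describe the probe set and not the transcript. The sign of the small differences turned when single arrays were left out. Over the 9 arrays, which share the 3 genotypes, the Pln and Cep85l probe sets had r = 0.10, given as a description.

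Mcm9 was at the edge of detection. Its log2 level was 4.78, 5.02 and 6.06 in control, where replicate 3 alone passed the background limit. It was 5.15, 5.18 and 4.95 in the MCU knockout and 5.26, 5.21 and 5.98 in the MCUb knockout, where again replicate 3 alone passed. All control and MCU knockout arrays but that 1 lay within 4.78 to 5.18. The difference from control was -0.19 (SE 0.32, adjusted p = 0.864 in limma) in the MCU knockout and 0.20 (SE 0.32, adjusted p = 0.890) in the MCUb knockout. Between the knockouts it was 0.39 (SE 0.32, adjusted p = 0.99985), where the groups did not overlap but lay only 0.03 apart. Groups that did not overlap, with the MCUb knockout higher, were found for 6.19% of all probe sets in that comparison. The two-sided exact permutation p was 0.1, and no lower p can be reached with groups of 3.

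Sln was above background on every array and was lowest in the MCUb knockout. Its log2 level was 7.36, 6.80 and 6.80 in control and 7.82, 6.76 and 7.19 in the MCU knockout. The MCUb knockout arrays gave 6.34, 6.35 and 6.62. These 3 values lay below all 6 others, while control and MCU knockout overlapped. The same position of the MCUb knockout was seen for 352 of 22206 probe sets (1.59%). Sln lay 0.45 to 1.90 above the limit, a low level: it exceeded 66.8% to 84.4% of 5222 further control features whose identifiers read neg, whose design is not described in the sources used here.

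The mean of Sln was 6.99 ± 0.33 (SD, n = 3) in control, 7.26 ± 0.53 in the MCU knockout and 6.44 ± 0.16 in the MCUb knockout. The difference from control in the MCUb knockout was -0.55 (SE 0.27), 1.46-fold lower, and did not pass the threshold (adjusted p = 0.620 in limma). Its 95% interval ran from -1.15 to 0.045. Of all probe sets, 7.02% had groups that did not overlap with the MCUb knockout lower in that comparison. Between the knockouts it was -0.82 (SE 0.27), 1.76-fold lower in the MCUb knockout, with a 95% interval of -1.42 to -0.22 before adjustment and an adjusted p of 0.619 in limma. With the MCUb knockout lower, 6.59% of all probe sets had no overlap there. Single arrays moved both values: without control replicate 1 the difference from control was -0.36, and without MCU knockout replicate 1 that between the knockouts was -0.54. On the 6 arrays with a low Y-linked level the latter was -1.33, with 1 MCU knockout array left. In the MCU knockout it differed from control by 0.27 (SE 0.27, adjusted p = 0.760), within the spread of either group. The exact two-sided permutation p was 0.1 for both comparisons with the MCUb knockout, the smallest possible, and 0.7 for the MCU knockout against control.

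**Figure D2:**
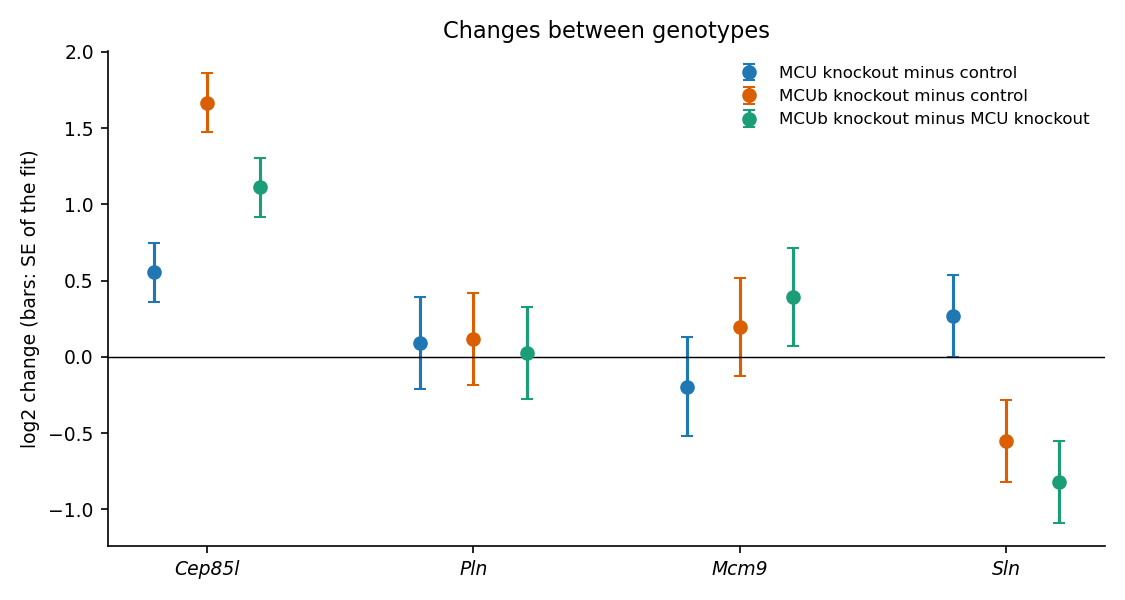
Log2 change of each of the 4 genes in the 3 comparisons (colours), with the SE of the limma fit as bars. Cep85l is above 0 in all 3, from 0.55 to 1.67, Pln and Mcm9 lie within 0.39 of 0, and Sln is at -0.55 and -0.82 where the MCUb knockout is compared.

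Sources of Sln and Pln other than fast fibres were read from marker lists. In whole muscle, fewer cells of a type and less RNA per cell cannot be told apart. Of 12 heart and atrial genes, 3 were above background on any array. Nppa and Myl7 were above it on 0 of 9, while Myl4, also of that list, was above it on all 9, at 11.6 to 13.0. The mean level of the 12 slow fibre genes was 9.65 to 9.68 on the control arrays, 8.74 to 9.42 in the MCU knockout and 8.59 to 9.81 in the MCUb knockout. These 12 genes did not move together: in the MCU knockout 7 were above control and 5 below, with a median difference of 0.12. With no overlap, 1 was higher and 4 were lower, against 6.08% and 7.33% of all probe sets. In limma 0 passed the threshold. At an unadjusted p under 0.05 lay 5, with 2 higher and 3 lower, against 10.1% of all probe sets. Tnnt1, the slow troponin T, differed by 0.60 (SE 0.26, adjusted p = 0.480) with no overlap, and Tnni1, the slow troponin I, by 0.63 (SE 0.40, adjusted p = 0.614). Myl2, the slow regulatory light chain, differed by -2.0 (SE 0.63, adjusted p = 0.361) and Myl3 by -0.48 (SE 0.31, adjusted p = 0.622), both with no overlap. Csrp3 averaged 14.12 in control and 11.70 in the MCU knockout, also with no overlap. On the 3 arrays with a high Y-linked level Csrp3 was 9.47 to 11.95, and on the other 6 it was 12.36 to 14.98. The part of that level in its difference was not tested. Myl2 overlapped between those arrays, at 6.60 to 9.32 against 8.57 to 10.93. The slow fibre calsequestrin Casq2 was between 8.24 and 9.89 on the 3 arrays with a high Y-linked level and between 10.43 and 11.68 on the other 6. Sln did not separate that way, with 6.34 to 7.19 against 6.35 to 7.82. Smooth muscle and pericyte genes, in tissue where Pln is also known, had mean levels of 8.31 to 8.92 in control, 8.50 to 8.79 in the MCU knockout and 8.48 to 8.82 in the MCUb knockout. Genes of regenerating or denervated muscle, in which Sln is known to rise, had means of 7.43 to 7.54, 7.34 to 7.93 and 7.37 to 7.48 in that order. Their part in the Sln values was not tested.

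The calcium pumps that Sln and Pln regulate were measured beside them. Of the 7 measured genes of pumps and small regulators, 0 passed in limma in any comparison, where 0.14% (MCU knockout and control), 0.0225% (MCUb knockout and control) and 0.158% (between the knockouts) of all probe sets did. At an unadjusted p under 0.05 there were 2, 0 and 4, against 10.1%, 8.11% and 5.7% of all probe sets. The median log2 difference of the 7 was 0.21, -0.04 and -0.12, against -0.02, -0.03 and -0.01 over all probe sets. Mrln and Strit1, further small regulators, had no probe set of that name.

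Atp2a1, the fast fibre pump, was at 19.45 to 19.92 in control and at 19.90 to 19.93 on all 6 knockout arrays. The highest value in the data, 19.93, was its own. Whether the scale limits a rise at that level was not tested. Atp2a2, the slow fibre and heart pump that phospholamban binds, was 11.01, 10.62 and 10.30 in control. It was 10.95, 11.59 and 11.16 in the MCU knockout and 10.44, 10.67 and 10.59 in the MCUb knockout. The knockouts did not overlap, and their difference was -0.67 (SE 0.23, adjusted p = 0.668 in limma), not past the threshold. Atp2a3, a pump of non-muscle cells, was 9.36, 9.06 and 8.98 in the MCU knockout and 7.98 to 8.60 in control (difference 0.80, SE 0.30, adjusted p = 0.418), with no overlap, as for 13.4% of all probe sets in either direction.

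The micropeptide gene 1810037I17Rik, which encodes another-regulin, a relative of phospholamban, was 8.68, 9.06 and 9.16 in the MCU knockout and 9.87, 9.95 and 9.88 in the MCUb knockout. Control lay across both, at 9.52, 9.96 and 8.95. The knockouts did not overlap and differed by 0.93 (SE 0.25, adjusted p = 0.419). Smim6, which encodes endoregulin, was above background on 2 of 9 arrays and differed by -0.31 to -0.12 in the 3 comparisons. Between the knockouts Sln and Atp2a2 were lower in the MCUb knockout and 1810037I17Rik was higher, each with groups that did not overlap. Such groups were found for 12.8% of all probe sets in that comparison, in either direction.

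Kinases, phosphatases and partners that act on phospholamban gave 0 of 17 measured genes past the threshold in each comparison (limma). Of these, 2, 3 and 0 had an unadjusted p under 0.05, where 10.1%, 8.11% and 5.7% of all probe sets lay. Medians were 0.01, 0.07 and 0.08. Camk2d, a calmodulin-dependent kinase that phosphorylates phospholamban, was 12.09, 12.44 and 10.74 in control and 13.20, 13.29 and 13.36 in the MCUb knockout. These groups did not overlap, as for 5.73% of all probe sets in that direction, and the low control is replicate 3, the array that stood apart. The MCU knockout arrays, at 12.20, 12.90 and 13.02, overlapped with control and lay below the MCUb knockout. The difference in the MCUb knockout was 1.53 (SE 0.38, adjusted p = 0.469). Ppp1r1a, an inhibitor of protein phosphatase 1, was 9.55, 8.92 and 9.73 in control and 7.90, 8.43 and 8.48 in the MCUb knockout (difference -1.13, SE 0.34, adjusted p = 0.530). Camk2d and 1810037I17Rik lie on chromosome 3, as do Casq2 and Adh1, among other genes named here. The part of chromosome position in their levels was not tested.

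**Figure D3:**
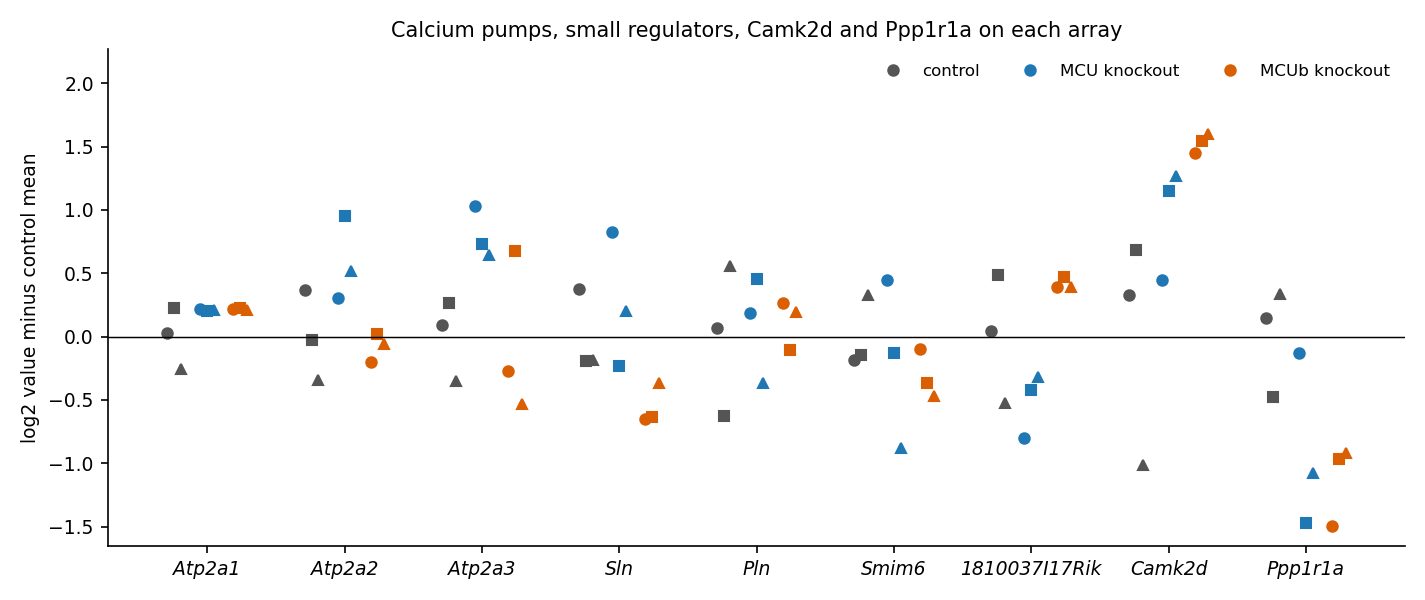
Log2 value minus the control mean on each array for 3 calcium pumps, 4 small regulators and 2 genes of phospholamban phosphorylation; colours are genotypes and symbols replicates (1 circle, 2 square, 3 triangle). Camk2d is highest in the MCUb knockout, where Ppp1r1a lies below all controls, 1810037I17Rik separates the knockouts, and Atp2a1 sits near the highest value in the data on the knockout arrays.

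Calcium store and release genes gave 0 of 22 past the threshold in each comparison (limma). At an unadjusted p under 0.05 lay 2, 1 and 3 of them, against 10.1%, 8.11% and 5.7% of all probe sets. Medians were 0.07, 0.03 and 0.00. Casq2 was 11.42, 11.63 and 11.68 in control and 10.43, 9.12 and 8.24 in the MCU knockout, with no overlap and a difference of -2.32 (SE 0.53, 4.98-fold lower, adjusted p = 0.204). The MCUb knockout arrays, at 9.89, 11.67 and 11.30, overlapped with control. Casq2 was lowest on the 3 arrays with a high Y-linked level, whose part in this difference was not tested. Stim1, the calcium sensor of the reticulum, was 6.93, 6.53 and 6.70 in the MCU knockout, below 7.46, 7.45 and 7.72 in control (difference -0.83, SE 0.21, adjusted p = 0.261). Groups with the MCU knockout lower and no overlap were found for 7.33% of all probe sets. Srl, which encodes the luminal calcium-binding protein sarcalumenin, was 14.30, 14.26 and 14.15 in the MCU knockout and 14.48, 14.29 and 14.40 in the MCUb knockout. Control was lower, at 13.90, 13.97 and 13.80, with differences of 0.34 (SE 0.16, adjusted p = 0.508) and 0.50 (SE 0.16, adjusted p = 0.534).

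The centrosome genes around Cep85l were read from a list. Of 21 other measured centriole and pericentriolar genes, 0 passed in any comparison (limma), with 1, 0 and 0 at an unadjusted p under 0.05, against 10.1%, 8.11% and 5.7% of all probe sets, and 14 were above background on any array. Their median difference in the MCUb knockout was 0.02, with 12 genes positive and 9 negative. The paralogue Cep85 was 8.78, 9.65 and 9.90 in control. It was 9.89, 9.79 and 10.01 in the MCU knockout and 9.59, 10.32 and 9.82 in the MCUb knockout, overlapping with control in both, and differed from it by 0.45 (SE 0.29, adjusted p = 0.618) and 0.47 (SE 0.29, adjusted p = 0.678).

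The MCM and replication licensing genes around Mcm9 also had 0 of 16 past the threshold (limma). At an unadjusted p under 0.05 lay 1, 2 and 1 of them, against 10.1%, 8.11% and 5.7% of all probe sets. Only 9 of the 16 were above background on any array. Mcm8, the partner of Mcm9, was above it on all 9. It was 7.47, 6.74 and 7.23 in control, 7.12, 7.17 and 7.17 in the MCU knockout and 6.47, 6.52 and 6.93 in the MCUb knockout. The knockouts did not overlap, as for 6.59% of all probe sets in that direction, with a difference of -0.52 (SE 0.22, adjusted p = 0.838).

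The rest of the chromosome 10 neighbourhood was read from the 10 measured genes on each side of Pln. Apart from Cep85l, 0 of these 19 genes and Pln passed in any comparison (limma), with 0, 2 and 1 at an unadjusted p under 0.05. Of all probe sets 0.14%, 0.0225% and 0.158% passed, and 10.1%, 8.11% and 5.7% had an unadjusted p under 0.05. Medians of the 20 were -0.01, -0.02 and -0.00, close to those of all probe sets. In the MCUb knockout 10 lay above control and 10 below, between -0.89 and 0.71. Only 10 of the 20 were above background on any array and 7 on every array.

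The gene next to Cep85l on the other side is Slc35f1, a member of a solute carrier family. It was 6.18, 5.67 and 5.70 in the MCUb knockout and 5.23, 5.31 and 4.87 in control, groups that did not overlap, as for 5.73% of all probe sets in that direction. The difference was 0.71 (SE 0.22, adjusted p = 0.534), but only MCUb knockout replicate 1 was above background. Vgll2, a muscle cofactor of TEAD transcription factors, was 11.31, 11.43 and 11.22 in control and 10.05, 10.94 and 10.58 in the MCUb knockout (difference -0.80, SE 0.27, adjusted p = 0.535). Its MCU knockout values of 11.29, 10.40 and 10.59 overlapped with both. Asf1a, a histone chaperone inside the span of Mcm9, was 12.54, 12.04 and 12.64 in control, 12.14, 12.02 and 11.98 in the MCU knockout and 12.13, 12.28 and 12.04 in the MCUb knockout. Mcu, deleted in the MCU knockout, is on the same chromosome with 26 measured genes between it and Pln.

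**Figure D4:**
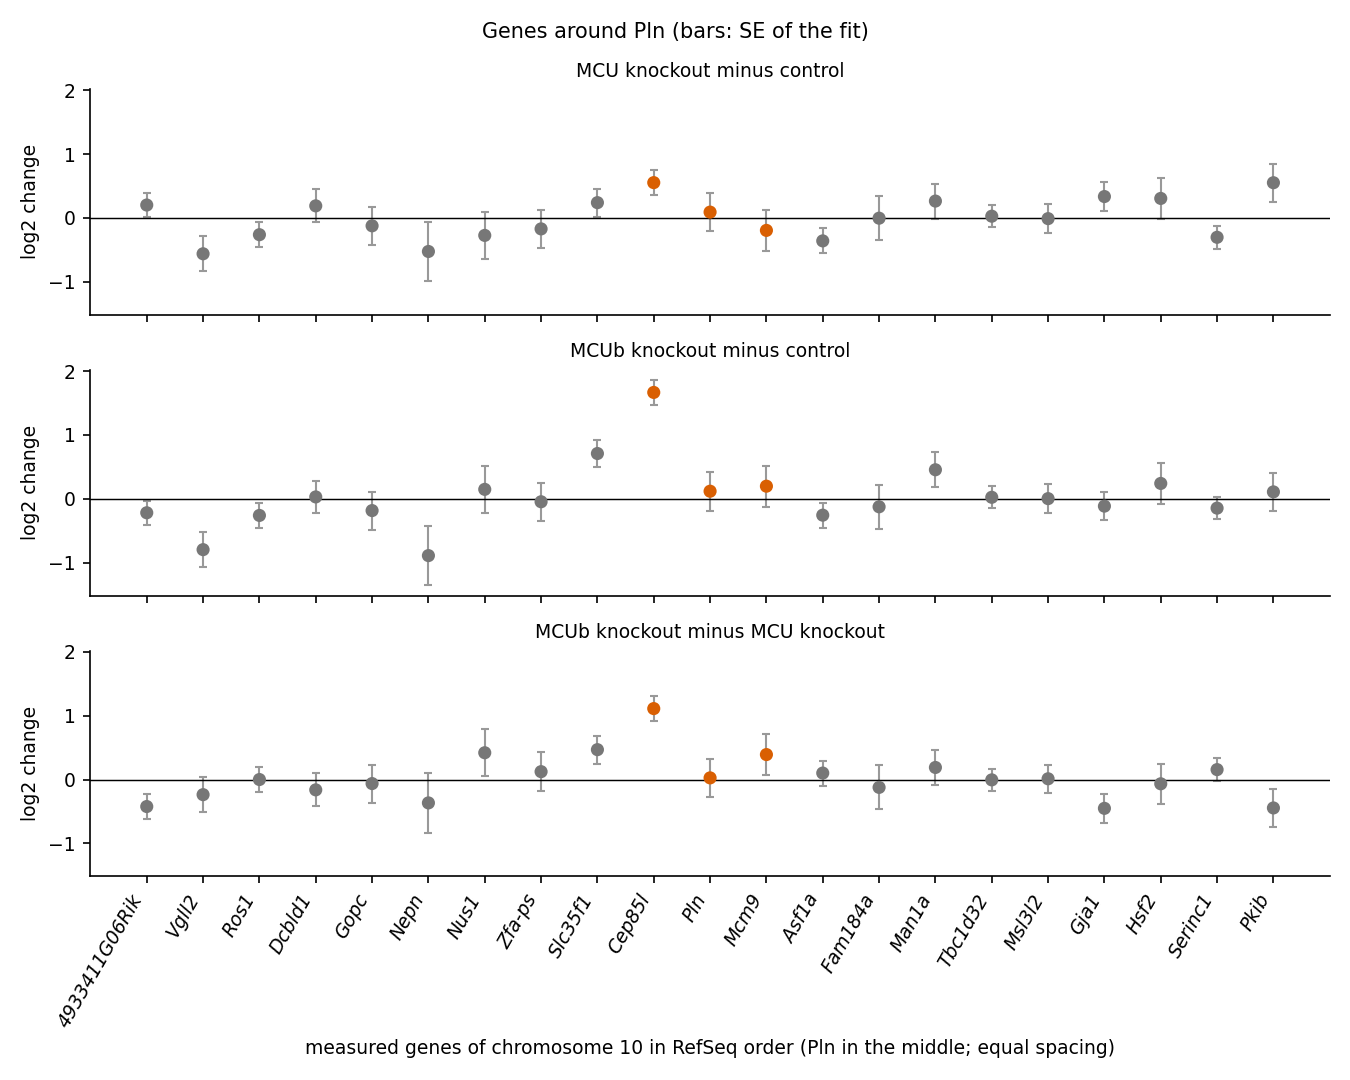
Log2 change with the SE of the fit for Pln, the 10 measured genes before it and the 10 after it on chromosome 10, in RefSeq order with equal spacing; Cep85l, Pln and Mcm9 are in orange. In the MCUb knockout Cep85l stands at 1.67 while the other genes lie between -0.89 and 0.71.

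The genes whose levels were most like those of Cep85l over the 9 arrays were Srp72, Adh1, Rps6ka5, Mast2 and Ufsp2, with Pearson r between 0.90 and 0.94 among 7650 genes above background on every array. These correlations are descriptions over arrays that share the 3 genotypes, and the choice favours genes that are high in the MCUb knockout. Adh1, the class I alcohol dehydrogenase on chromosome 3, was at 12.92 to 13.16 in the MCUb knockout, 11.32 to 11.82 in the MCU knockout and 10.95 to 11.44 in control. Srp72, of the signal recognition particle, was at 13.03 to 13.21, 12.55 to 12.66 and 12.29 to 12.70 in that order. Rps6ka5, a nuclear kinase, was at 11.12 to 11.63, 9.95 to 10.71 and 10.02 to 10.29. In all 5 the MCUb knockout arrays lay above the others while MCU knockout and control overlapped, unlike Cep85l.

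**Figure D5:**
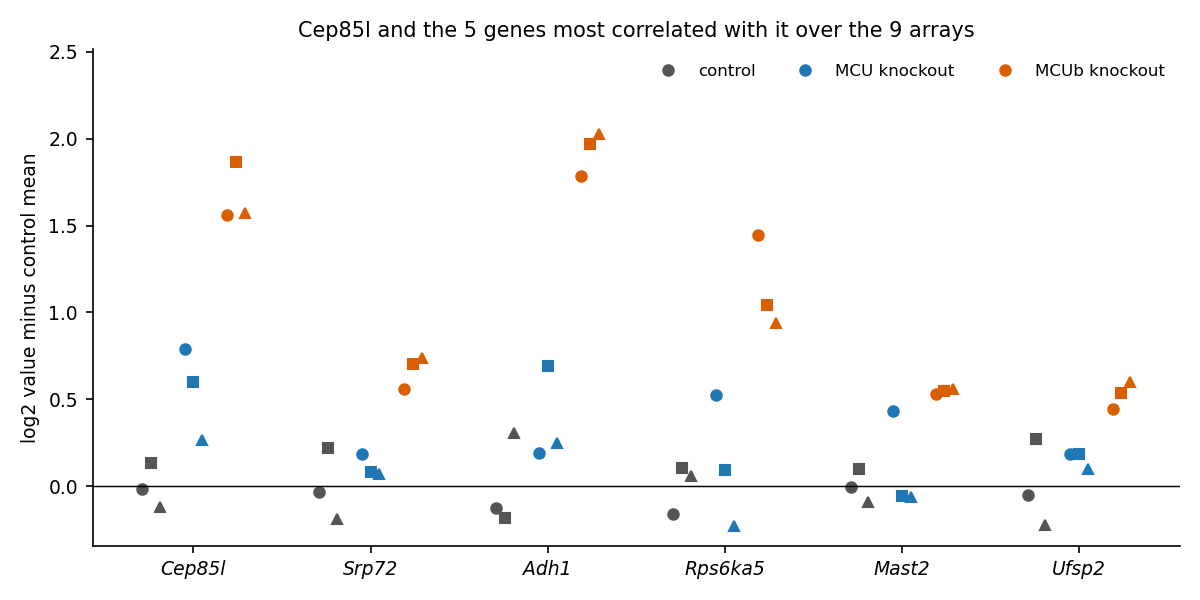
Log2 value minus the control mean on each array for Cep85l and the 5 genes most correlated with it; colours are genotypes and symbols replicates (1 circle, 2 square, 3 triangle). The MCUb knockout arrays are highest for all 6 genes, and Cep85l alone has every MCU knockout array above every control.

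For Sln the most similar genes were Lce1h, Llgl2, Nav2, Pnrc1 and Zcchc14, with r between 0.91 and 0.93. Pnrc1, a nuclear receptor coactivator, was at 12.62 to 12.98 in the MCUb knockout, 13.32 to 13.64 in the MCU knockout and 13.07 to 13.50 in control. Llgl2, a cell polarity protein, was at 6.94 to 7.11, 7.48 to 8.24 and 7.08 to 7.83. Sln and Cep85l ran against each other (r = -0.54 over 9 arrays, a description), being lowest and highest in the MCUb knockout.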

How the data were processed

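Total RNA of whole tibialis anterior was hybridised to 9 arrays. The deposited log2 values, 1 per probe set and array, come from the authors; the submitters' processing notes name Affymetrix Expression Console. Its version, summarisation, normalization, the base of the logarithm and the genome build are not given in the sources used here. The values were read as log2 because they ran from 2.33 to 19.9. Of 28846 values per array, 6640 control features were left out, leaving 22206 probe sets, of which 19572 had 1 gene symbol, 0 several and 2634 none. All 19572 matched the RefSeq table of GRCm38.p6 by gene identifier; that table gave names, chromosomes and gene order, and RefSeq start regions of the same build gave the sequences. For genes with several probe sets the one with the highest mean was read.

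All comparisons come from limma 3.58.1 (R 4.3.3), with lmFit and eBayes and two-sided tests, in 1 fit of 3 group means over all 9 arrays, with 6 residual and 5.06 prior degrees of freedom, and Benjamini-Hochberg adjustment over 22206 probe sets at a threshold of 0.05. The fit was tested on simulated data. The number of arrays limits the precision: the median SE was 0.23. The genes and lists were chosen with earlier results of these data known. Named are the 4 genes, Mcu, all pumps and small regulators, and up to 3 genes of smallest p in each list. Also named are the neighbours with the smallest p and 5 genes most correlated with each of the 4. Asf1a, Cep85, Mcm8, Myl3, Csrp3 and the genes ordered over 3 genotypes were named after their values were seen where these rules did not reach them. The alternatives tried were quantile normalization, median centring, leaving out dim probe sets, a trended robust prior, array weights, 2-group fits, a replicate block, the Y-linked level as covariate, each array left out and, added after seeing the data, the 6 arrays with a low Y-linked level.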

Additional observations from a re-analysis of the deposited data

How the results depend on the processing

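In all 18 alternatives Cep85l kept its direction in the 3 comparisons, and Sln stayed lower in the MCUb knockout in both of its comparisons, never past the threshold (between -0.67 and -0.36 against control and between -1.33 and -0.54 between the knockouts, adjusted p between 0.359 and 0.915 against control, and between 0.378 and 0.996 against the MCU knockout, limma). On the 6 arrays with a low Y-linked level, an alternative chosen after seeing the data, Cep85l in the MCU knockout was 0.79, with 1 array left in that group. Cep85l was picked for its level in the MCUb knockout on these same arrays, so nothing is read from its kept direction.

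Directions of Pln, Mcm9 and Sln in the MCU knockout turned with single choices, and the cause was not tested. Pln in the MCU knockout was -0.015 in a fit with a Y-linked covariate, and between the knockouts it was -0.14 on the 6 arrays with a low level. Mcm9 in the MCU knockout was 0.0058 with array weights. With single arrays left out, Pln ranged from -0.22 to 0.37 in the MCU knockout, from -0.19 to 0.40 in the MCUb knockout and from -0.20 to 0.21 between the knockouts. Mcm9 ranged from -0.45 to 0.19 and from -0.057 to 0.58 against control, and Sln from -0.012 to 0.52 in the MCU knockout. The filter on dim probe sets removed Pln and Mcm9, and each gene had 1 probe set, so averaging the probe sets of a gene gave no value.

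The count of probe sets past the threshold moved from 31 to 16 with the Y-linked covariate in the MCU knockout, from 5 to 1 in a 2-group fit in the MCUb knockout, and from 35 to 61 with array weights between the knockouts. On the 6 arrays it was 0, 0 and 3 (limma, with 1090, 1117 and 912 at an unadjusted p under 0.05). With single arrays left out it ranged from 20 to 98 (highest without control replicate 2, lowest without MCU knockout replicate 3), from 0 to 20 and from 13 to 43. In the MCUb knockout it was 0 without control replicate 1 or MCUb knockout replicate 1 or 3 (limma, with 1649, 1395 and 1436 at an unadjusted p under 0.05), 20 when control replicate 2 was left out, 2 without MCUb knockout replicate 2 and 3 without MCU knockout replicate 2. Between the knockouts it was 13 without MCU knockout replicate 3, and 23 and 19 without MCUb knockout replicates 2 and 3. With the replicate number as a block the counts were 24, 5 and 28, and Sln in the MCUb knockout was -0.55 (adjusted p = 0.622); deviations of same-numbered arrays correlated between -0.12 and 0.09, so the numbers were not read as pairs. Levels near background limit Pln and Mcm9 to bounds.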

Other observations

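Genes most similar to Pln over the 9 arrays were Ccdc43, Unc119b, Ago4, Zfp560 and Rita1 (r between 0.85 and 0.95), and to Mcm9 Larp1b, Btc, Sntb1, Agfg2 and Aox1 (r between 0.87 and 0.94), all above background on every array. Since Pln lay below background on all 9 arrays and Mcm9 on 7, these describe the probe sets only. Aox1, an aldehyde oxidase, was at 9.72 to 10.14 in the MCU knockout and 10.21 to 11.15 in the MCUb knockout, with control across both at 9.83 to 11.28.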
